A study of Mus musculus with 8 samples.

Results

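Fibroblast growth factors (FGFs) and their tyrosine kinase receptors were examined in mouse fibroblasts, embryonic stem cells and cells reprogrammed from fibroblasts with small molecules. The set held 10 genes of 27620 on the array, namely the ligand genes Fgf2, Fgf5, Fgf7, Fgf10, Fgf15 and Fgf17 and the receptor genes Fgfr1, Fgfr2, Fgfr3 and Fgfr4. They were chosen by name, with earlier results of these data known, and were read by 20 of 41174 probes, each a 60-base oligonucleotide. Accessions assigned 18 of these probes to their gene and the symbol assigned the other 2. Each of 5 genes (Fgf5, Fgf7, Fgf10, Fgf15 and Fgf17) had 1 probe, and the other 5 had several.

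The arrays were 1-colour Agilent expression arrays hybridised with Cy3-labelled total RNA, 1 per group. The group ES was embryonic stem cells from blastocysts of 129/Ola mice, and MEF was mouse embryonic fibroblasts, with no strain or passage in the labels. PM2i-iPSC came from MEFs exposed to combinations that included purmorphamine, a synthetic activator of Smoothened in the Hedgehog pathway, and OM2i-iPSC from MEFs exposed to combinations that included an oxysterol, an oxidised cholesterol derivative. Both preparations were then kept in 2i/LIF, a medium that holds the cytokine LIF and inhibitors of the kinases MEK and GSK3, so MEK, which acts downstream of FGF receptors, was a target of that medium. The labels do not name the other compounds of the combinations, the strain of these MEFs, the medium of the ES cells or the number of clones. The series holds 8 RNA samples, and the other 4, on Affymetrix arrays, were not analysed here.

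FGFs are secreted proteins that bind FGF receptors together with heparan sulfate chains on the cell surface, and binding activates the RAS, MEK and ERK kinases, phospholipase C gamma and PI3 kinase. Mesenchymal cells secrete Fgf7 and Fgf10, which signal to epithelia through the IIIb splice form of Fgfr2, and mesenchymal cells mostly carry the IIIc forms of Fgfr1 and Fgfr2. In the early mouse embryo FGF signalling moves cells out of naive pluripotency, Fgf5 is a marker of the primed epiblast that follows, and Fgf15 and Fgf17 are ligands of patterned embryonic tissue. Fgf2 is the ligand added to media for primed pluripotent cells.

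The probes that carry the results are shown first, because several results depend on which stretch of a gene was read. The sequences and positions are those listed with the MEF array, on mouse build mm7, and each runs 5′ to 3′ on the strand named. The exons and untranslated regions that hold them were not analysed here. The first set holds the probes of the mesenchymal ligands, with Fgf10 given by its first 30 bases.
Fgf7, chr2:125830264-125830323, plus strand: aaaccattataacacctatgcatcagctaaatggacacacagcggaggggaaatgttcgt
Fgf10, chr13:115999939-115999968, plus strand: acagcaaatagtgcagacgttggattctta
Fgf2, within chr3:37159793-37207012, plus strand: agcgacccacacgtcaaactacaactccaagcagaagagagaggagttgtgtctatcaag
The Fgf2 probe spans 47220 bases of the genome, so its 60 bases lie in separate stretches.

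For Fgfr1, probes 2 and 3, the next after the brightest, are shown because they gave another order of the arrays than probe 1. They overlap by 39 bases, of which 38 match, and capitals mark the base where they differ, A57G counted from the 5′ end of probe 3.
Fgfr1 probe 2, chr8:24330065-24330124, plus strand: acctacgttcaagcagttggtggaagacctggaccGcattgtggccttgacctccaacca
Fgfr1 probe 3, chr8:24330044-24330103, plus strand: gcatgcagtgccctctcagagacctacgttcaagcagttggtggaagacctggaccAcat
For Fgfr2 the first 30 bases of the 2 brightest probes are given. Their centres lie 743 bases apart, and probe 1 was highest in MEF where probe 2 was lowest.
Fgfr2 probe 1, chr7:126278308-126278337, minus strand: gaggactagttaatctattgcttggactta
Fgfr2 probe 2, chr7:126279051-126279080, minus strand: ctgcctcagtatccacacataaacggcagt

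Levels are log2 of a probe's processed signal over the 75th percentile of its array, so 0 is the 75th percentile and 1 unit is 2-fold. Values of different probes have no common scale, so the order of the arrays is read within a probe. Percentiles ranged from 1877 in MEF to 3531 in PM2i-iPSC, and 63.4% to 72.8% of spots were well above background by the scanner's call. The dimmest probe called so lay at -6.85 in MEF against -5.13 in ES, -4.59 in PM2i-iPSC and -4.60 in OM2i-iPSC, so MEF could show dimmer signals. Where the dimmer of the arrays compared did not rise well above background, or the brighter one was saturated, the difference is a bound and is written "at least". Each group had 1 array, so no test could be made and replicate error is unknown. The only spread at hand is between spots of a probe on an array, with a median SD of 0.14 on the log2 scale over 245 probes printed several times, or 0.20 for a difference between 2 single spots. It covers spotting and scanning only. MEF was on a slide of its own, scanned on another day and extracted with another software version, and OM2i-iPSC was on a further slide. Slide and cell type therefore cannot be told apart for either array. ES and PM2i-iPSC shared a slide. In such bulk RNA, fewer cells of a type and less RNA per cell cannot be told apart.

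Summed ES and fibroblast markers matched the labelled cell types, though not every single marker did. The 8 ES markers, among them Pou5f1 and Nanog, summed to 106.5 times the 75th percentile in ES, 94.26 in PM2i-iPSC, 79.24 in OM2i-iPSC and 1.478 in MEF. The 12 fibroblast markers, such as Col1a1 and Thy1, summed to 175.3 in MEF and to 9.114, 7.08 and 6.808 in ES, PM2i-iPSC and OM2i-iPSC, where 10, 8 and 9 of them were well above background. Such sums set the same probes against each other across arrays. They are lower limits where a probe was saturated, as Nanog and Dppa5a were on the 3 pluripotent arrays, Esrrb and Tdgf1 in PM2i-iPSC and Col1a2 in MEF. Of 8 primed epiblast markers, 4 (Pou3f1, Sox3, T and Cer1) were not well above background in ES or either iPSC preparation.

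The fibroblasts held the highest signal of both mesenchymal ligands that act on epithelia and, by their brightest probes, of Fgfr1 and Fgfr2. In ES, 4 of 10 members were at least 2-fold lower than in MEF (Fgf7, Fgf10, Fgfr1 and Fgfr2), where 22.4% of 21749 genes were that much lower, and 1 was higher (Fgf15), where 33.7% of genes were. In PM2i-iPSC 5 of 9 members tested were lower (the same 4 genes and Fgfr3; 23.6% of genes) and 0 were higher (33.9% of genes). In OM2i-iPSC 4 of 9 were lower (those 4 again; 23.3% of genes) and 3 were higher (Fgf2, Fgf5 and Fgf17; 36.6% of genes). Under median scaling, quantile normalisation or normexp background correction only 1 was higher. A difference or bound could be given for 9 members in ES, 7 in PM2i-iPSC, where Fgf2 and Fgf5 gave neither, and 9 in OM2i-iPSC. The median over those members was -0.40 in ES, -2.76 in PM2i-iPSC and -0.88 in OM2i-iPSC, beside 0.27, 0.26 and 0.36 over all genes. These comparisons share the MEF array. Scaling by each array's median lowered differences against MEF over all genes, with a fall of the median by 0.56 in ES, 0.63 in PM2i-iPSC and 0.74 in OM2i-iPSC. The split of called genes moved with it. Genes higher than in MEF made up 60.1% of those past 2-fold in ES and 44.1% under the median, 59% and 42.8% in PM2i-iPSC, and 61.1% and 43.2% in OM2i-iPSC.

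**Figure D1:**
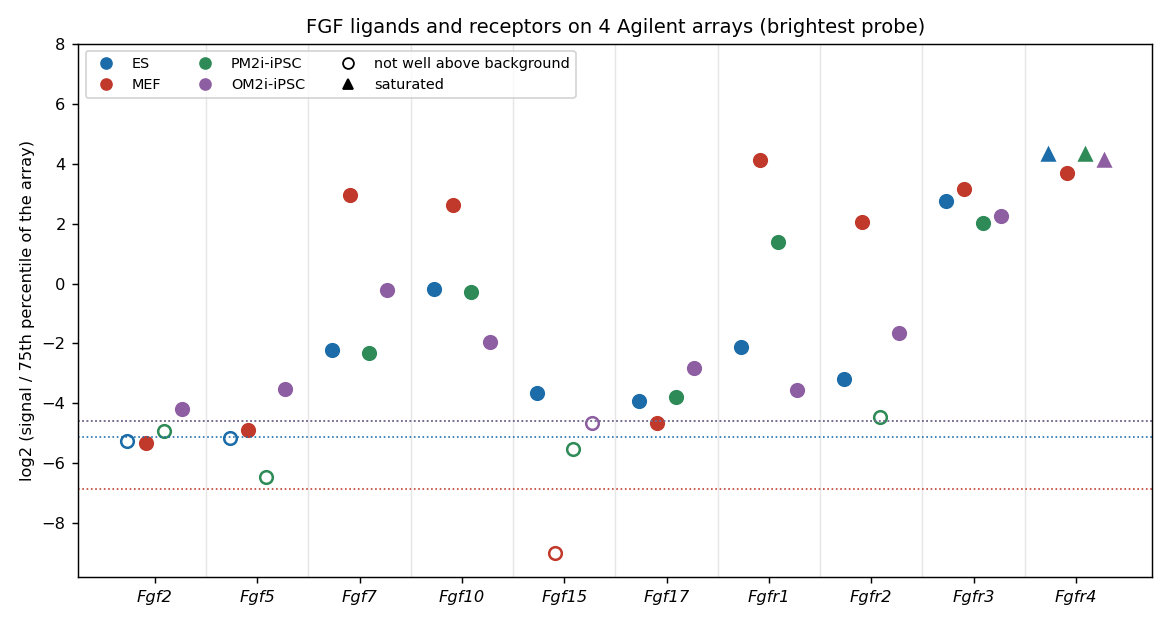
Level of each FGF ligand and receptor gene on the 4 arrays, as log2 of the signal of its brightest probe over the array's 75th percentile. Each point is 1 array; open points were not well above background, triangles were saturated, and dotted lines mark the dimmest signal called above background on each array (PM2i-iPSC and OM2i-iPSC nearly coincide). Fgf7, Fgf10, Fgfr1 and Fgfr2 are highest in MEF, and Fgfr4 is saturated on the other 3 arrays.

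Fgf7, known as keratinocyte growth factor, had processed signals of 14474 in MEF, 677 in ES, 2978 in OM2i-iPSC and 708.2 in PM2i-iPSC, which scaled to 2.95, -2.22, -0.22 and -2.32. MEF stood highest, OM2i-iPSC between, and ES and PM2i-iPSC lowest, 0.10 apart and so within the spread between single spots. Relative to MEF the Fgf7 signal was 36-fold lower in ES and 38.5-fold lower in PM2i-iPSC, but 8.96-fold lower in OM2i-iPSC. OM2i-iPSC exceeded ES 4.02-fold and PM2i-iPSC 4.29-fold. Of 11 fibroblast markers tested, 2 (Col3a1 and Pdgfrb) exceeded ES by 2-fold or more in OM2i-iPSC, where 20.6% of all genes did. Lower by as much were 5 (Dcn, Lum, Pdgfra, Twist2 and Prrx1), beside 13.6% of all genes. Another Col3a1 probe gave -0.39, and other Prrx1 probes gave -3.77, -0.92 and 0.59. The part of fibroblast markers in the Fgf7 values was not tested.

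Fgf10, a mesenchymal ligand of Fgfr2 needed for limb and lung buds, was read by a probe printed 10 times on each array. Its levels were 2.61 in MEF, -0.20 in ES, -1.94 in OM2i-iPSC and -0.30 in PM2i-iPSC, with an SD between spots of 0.09 to 0.10. The spots ran from -0.32 to -0.07 in ES, from 2.38 to 2.77 in MEF, from -0.44 to -0.15 in PM2i-iPSC and from -2.13 to -1.84 in OM2i-iPSC. ES and PM2i-iPSC overlapped, and MEF and OM2i-iPSC each stood apart. The signal was 7.01-fold lower than in MEF in ES (-2.81, SE from spots 0.04), 7.51-fold lower in PM2i-iPSC (-2.91, SE 0.04) and, in OM2i-iPSC, 23.5-fold lower (-4.55, SE 0.05). OM2i-iPSC lay 3.35-fold below ES and 3.13-fold below PM2i-iPSC, so the iPSC preparation with more Fgf7 signal had less Fgf10 signal.

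Fgf2, the ligand added to media for primed cells, lay near the detection limit. Its 10-spot probe read -5.32 in MEF, -5.26 in ES, -4.20 in OM2i-iPSC and -4.94 in PM2i-iPSC, and only MEF and OM2i-iPSC were well above background. Spots ranged from -5.85 to -4.27 in ES, -5.55 to -5.09 in MEF, -5.42 to -3.99 in PM2i-iPSC and -4.90 to -3.63 in OM2i-iPSC. The OM2i-iPSC spots lay above every MEF spot and overlapped those of ES and PM2i-iPSC. OM2i-iPSC exceeded MEF 2.17-fold (1.12, SE from spots 0.14), a difference that fell to 0.38 with median scaling and to -0.04 with quantile normalisation. A second Fgf2 probe was not well above background on any array.

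**Figure D2:**
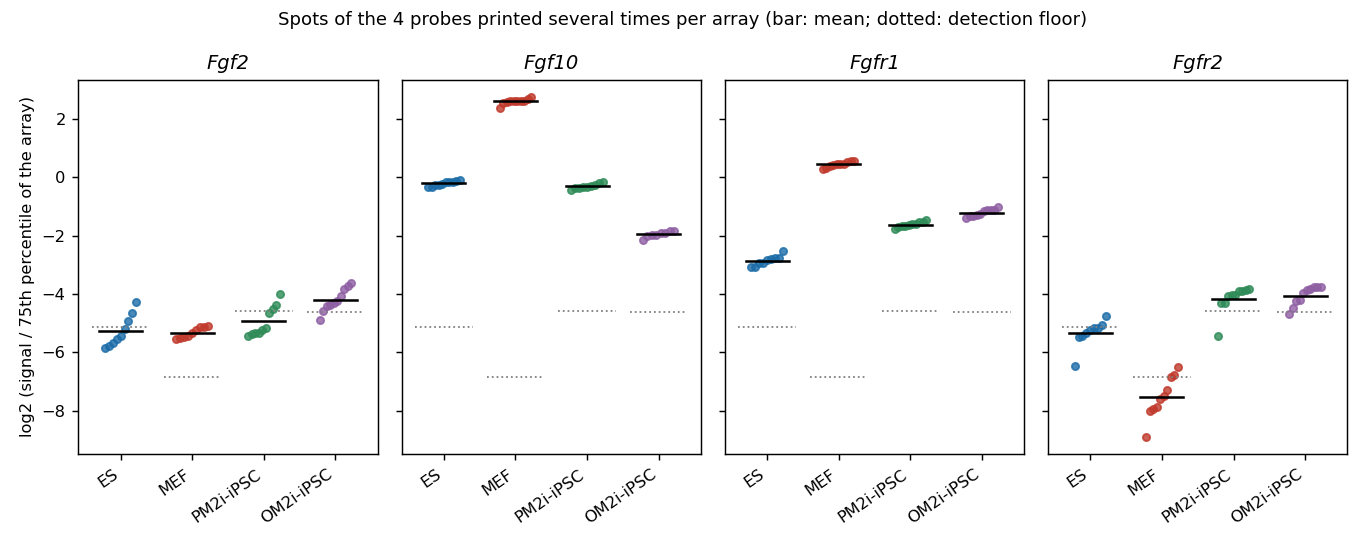
Levels of single spots for the 4 probes of member genes that are printed several times per array (Fgf2, Fgf10, Fgfr1 probe 3 and Fgfr2 probe 2), as log2 of the signal over the array's 75th percentile. Each point is 1 spot, bars are means over spots, and dotted lines mark the dimmest signal called above background on each array. The Fgf10 and Fgfr1 spots of MEF lie above all others, the Fgf2 spots of ES and PM2i-iPSC overlap those of MEF and OM2i-iPSC, and the Fgfr2 spots of MEF lie around their detection line.

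Among the ligands of pluripotent, primed or patterned cells, OM2i-iPSC held the highest signal of Fgf5 and Fgf17. Fgf5 read -4.89 in MEF, -5.17 in ES, -3.53 in OM2i-iPSC and -6.45 in PM2i-iPSC, and it was well above background in MEF and OM2i-iPSC only. OM2i-iPSC was at least 3.03-fold above ES, at least 2.08-fold above PM2i-iPSC and 2.56-fold above MEF. The difference from MEF was 1.36, and 0.62 with median scaling. Primed epiblast markers summed to 4.524 times the 75th percentile in OM2i-iPSC, beside 1.583 in ES, 1.702 in PM2i-iPSC and 1.295 in MEF. Otx2, a transcription factor of the primed epiblast, was 3.55-fold and Lef1, a nuclear partner of beta-catenin, 7.42-fold higher in OM2i-iPSC than in ES, while Eomes and Dnmt3b, the other detected markers of the list, differed by -0.56 and -0.01. Pou3f1, Sox3, T and Cer1 were not well above background. Lef1, at a level of 1.54 in OM2i-iPSC, made up most of that sum. Markers of other lineages were also at least 2-fold above ES in OM2i-iPSC, where 20.6% of all genes were. They were Cdx2 and Hand1 of 5 trophoblast and caudal markers tested, and Nes and Sox1 of 5 neural progenitor markers. Of 6 endoderm markers Sox7 was higher. Lower than ES by as much were 0, 0 and 1 of those lists (13.6% of all genes). The part of any of these markers in the Fgf5 result was not tested.

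Fgf15, a ligand of embryonic brain and ileum, was well above background in ES alone. Its levels were -9.0 in MEF, -3.66 in ES, -4.66 in OM2i-iPSC and -5.54 in PM2i-iPSC. ES was at least 9.11-fold above MEF, a bound of 3.19. That bound fell to 2.63 with median scaling, 2.27 with quantile normalisation and 1.42 with normexp. Against the iPSC preparations the bounds were lower, at least 1.90-fold above PM2i-iPSC and at least 1.92-fold above OM2i-iPSC, with detection floors of -4.59 and -4.60 on those arrays. Neural progenitor markers summed to 2.052 times the 75th percentile in MEF, 0.8417 in ES, 1.345 in OM2i-iPSC and 0.8227 in PM2i-iPSC.

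Fgf17, a ligand of the Fgf8 subfamily that acts in the midbrain and cerebellum, was well above background on every array, at -4.67 in MEF, -3.93 in ES, -2.82 in OM2i-iPSC and -3.80 in PM2i-iPSC. ES and PM2i-iPSC differed by 0.12, within the spread between spots. OM2i-iPSC was 2.15-fold above ES, 1.97-fold above PM2i-iPSC and 3.60-fold above MEF. The excess over MEF was 1.85, and 0.89 with quantile normalisation; that of ES was 0.74, and -0.04.

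Among the receptors, Fgfr1 was higher in MEF than on any other array by each of its 4 probes, but the probes disagreed on the size and on the order of the other arrays. Fgfr1 is the main receptor of fibroblasts and also the receptor through which FGF acts on ES cells. Its probe 1 read 4.14 in MEF, -2.12 in ES, -3.56 in OM2i-iPSC and 1.38 in PM2i-iPSC. Probe 2 read 1.30, -2.07, -0.45 and -0.44 on the same arrays, and probe 3, over 9 or 10 spots, read 0.45, -2.85, -1.21 and -1.62. Probe 4 read -2.10 in MEF and was not well above background elsewhere. The log2 difference of ES from MEF was -6.26 by probe 1 (76.6-fold), -3.37 by probe 2 and -3.30 by probe 3, and probe 4 gave at least 8.17-fold less. For PM2i-iPSC those differences were -2.76, -1.74 and -2.07, and at least 5.61-fold less by probe 4. For OM2i-iPSC probe 1 gave -7.70, which is 207-fold, while probes 2 and 3 gave -1.75 and -1.66.

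Relative to ES, PM2i-iPSC was higher by probes 1, 2 and 3, with Fgfr1 differences of 3.50, 1.63 and 1.24. For OM2i-iPSC, probe 1 placed Fgfr1 2.71-fold below ES (-1.44), whereas probes 2 and 3 placed it 3.07-fold and 3.13-fold above (1.62, and 1.64 with an SE from spots of 0.07). The spots of probe 3 bear on spotting noise only: they ran from -3.08 to -2.52 in ES and from -1.40 to -1.0 in OM2i-iPSC, with no overlap. Between the iPSC preparations probe 1 gave 30.6-fold more signal in PM2i-iPSC (4.93), probe 2 a difference of 0.01 and probe 3 one of -0.41. Probe 1 alone placed the iPSC preparations more than 2-fold apart. Probe 1 was a single spot on each array, and whether the probes read different transcripts was not tested.

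Fgfr2, whose splice forms serve as receptors of epithelia and of mesenchyme, was also read differently by its probes. Probe 1 read 2.06 in MEF, -3.19 in ES, -1.64 in OM2i-iPSC and -4.47 in PM2i-iPSC, with PM2i-iPSC not well above background. Probe 2, printed 10 times, read -7.52, -5.34, -4.05 and -4.16 on those arrays, and only the iPSC preparations were well above background. Probe 3, which lies 128693 bases from probe 2, was well above background in MEF only, at -6.29. By probe 1 the Fgfr2 signal in MEF was 37.9-fold that in ES, at least 92.4-fold that in PM2i-iPSC and 13.0-fold that in OM2i-iPSC. By probe 2 MEF was the lowest array, and PM2i-iPSC exceeded it at least 6.44-fold (2.69) and OM2i-iPSC at least 6.96-fold (2.80). The probe 2 spots of MEF ran from -8.90 to -6.50 and those of OM2i-iPSC from -4.67 to -3.75, with no overlap.

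Against ES, probe 1 gave a lower Fgfr2 signal in PM2i-iPSC, by at least 2.44-fold, and a higher one in OM2i-iPSC, by 2.93-fold. Probe 2 was higher in both, by at least 1.96-fold in PM2i-iPSC and at least 2.12-fold in OM2i-iPSC. The iPSC preparations differed at least 7.13-fold by probe 1 (OM2i-iPSC higher) and by -0.11 (SE from spots 0.18) by probe 2. Markers of epithelia, which carry Fgfr2, summed to 0.876 times the 75th percentile in MEF, 25.21 in ES, 28.43 in OM2i-iPSC and 21.56 in PM2i-iPSC. Their part in the probe 2 values was not tested.

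**Figure D3:**
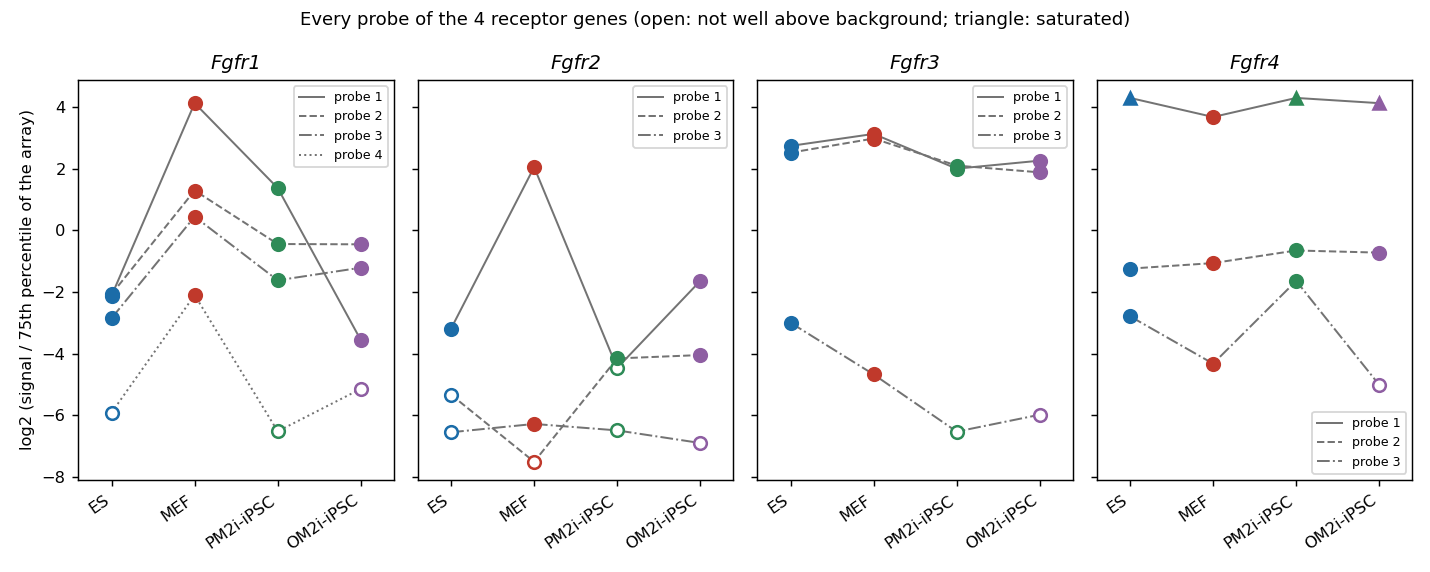
Level of every probe of Fgfr1, Fgfr2, Fgfr3 and Fgfr4 on the 4 arrays, as log2 of the signal over the array's 75th percentile, with lines joining the values of 1 probe. Open points were not well above background and triangles were saturated. Fgfr1 peaks in MEF by each probe, Fgfr2 probes 1 and 2 run in opposite directions between MEF and the iPSC preparations, and Fgfr4 probe 1 is saturated on every array but MEF.

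Fgfr3, a receptor best known for restraining bone growth, was read by 2 bright probes that overlap by 37 bases. Probe 1 read 3.14 in MEF, 2.75 in ES, 2.27 in OM2i-iPSC and 2.01 in PM2i-iPSC, and probe 2 read 2.99, 2.53, 1.89 and 2.11. MEF was highest and ES next by both, while the iPSC preparations changed places (-0.26 and 0.23). PM2i-iPSC lay 2.20-fold below MEF by probe 1 and 1.83-fold by probe 2, so its 2-fold call rested on the choice of probe. Probe 3, with its centre 505 bases from that of probe 1, was dimmer and ordered ES above MEF, at -3.0 and -4.68; it was not well above background in either iPSC preparation. ES exceeded both iPSC preparations by that probe, at least 3.01-fold in PM2i-iPSC and at least 3.04-fold in OM2i-iPSC.

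Fgfr4, which with the co-receptor Klb responds to Fgf15 in liver, was saturated by its brightest probe in ES, PM2i-iPSC and OM2i-iPSC, at 4.31, 4.31 and 4.14, and read 3.69 in MEF. Those differences from MEF are bounds of 0.61, 0.62 and 0.44, and with median scaling they were 0.05, -0.01 and -0.30. For ES the value rose to 1.13 with quantile normalisation and was 0.69 with normexp, so it depended on the scaling. Probe 2 was in range on all arrays and read -1.06 in MEF, -1.24 in ES, -0.72 in OM2i-iPSC and -0.65 in PM2i-iPSC. No pair of arrays reached 2-fold by probe 2. Probe 3, whose centre lies 135 bases from that of probe 1, read -2.79 in ES, -4.33 in MEF and -1.64 in PM2i-iPSC and was not well above background in OM2i-iPSC, at -5.02. By that probe Fgfr4 in PM2i-iPSC was 6.44-fold above MEF, 2.22-fold above ES and at least 7.79-fold above OM2i-iPSC. OM2i-iPSC lay at least 3.52-fold below ES.

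The iPSC preparations were also compared with ES, which shows where each departed from pluripotent cells in its FGF genes. In PM2i-iPSC 1 of 8 members tested was at least 2-fold higher (Fgfr1; 14.0% of 19910 genes) and 1 lower (Fgfr2; 11.3% of genes). In OM2i-iPSC 4 of 10 were higher (Fgf5, Fgf7, Fgf17 and Fgfr2; 20.6% of 20345 genes) and 2 lower (Fgf10 and Fgfr1; 13.6% of genes). Median differences were -0.10 and 0.93 over the 7 and 9 members with a difference or bound, and -0.04 and 0.04 over all genes. Genes higher in OM2i-iPSC made up 60.3% of those past 2-fold, and 48.6% with median scaling. Between the iPSC preparations 2 of 9 members were higher in PM2i-iPSC (Fgf10 and Fgfr1, beside 12.5% of 20147 genes). Another 3 were lower (Fgf5, Fgf7 and Fgfr2, beside 16.9% of genes). Medians were -0.68 over the 8 members with a difference or bound and -0.09 over all genes. The higher Fgfr1 in PM2i-iPSC than in ES also held by probes 2 and 3 (1.63 and 1.24). Likewise the higher Fgfr2 in OM2i-iPSC than in ES held by probe 2, at least 2.12-fold. That probe was dim, at -4.05 in OM2i-iPSC beside a floor of -4.60, and not well above background in ES. The other calls of Fgfr1 and Fgfr2 rested on probe 1, as given above.

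Genes whose pattern over the 4 arrays was most like that of a member were searched among 16320 genes, for the 4 members with a range of at least 4-fold. The measure was the mean absolute difference of centred log2 levels, with low values raised to the highest detection floor. For Fgf7 the nearest were Il1rl2 (0.06) and Irx5 (0.12). For Fgf10 they were Znrf3 (0.02) and Rnase4 (0.07), and for Fgfr2 probe 1 Phxr4 (0.07) and Efnb2 (0.12). Nothing came as near to Fgfr1 probe 1, where the smallest values were 0.68 for Cst6 and 0.74 for Parva. With 4 arrays such likeness is a description of these arrays only.

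The remaining genes of the pathway were taken from lists chosen by role. Of 16 other Fgf genes, 15 had a probe and Fgf4, the main ligand of ES cells, was not analysed here. In ES against MEF 5 of the 13 tested were at least 2-fold higher, a share near the 33.7% of all genes, and 6 were lower (22.4% of all genes). Fgf11, an intracellular member of the family, exceeded its MEF level 5-fold in ES (-0.79 against -3.11 in MEF), and Fgf12, of the same intracellular subfamily, at least 4.61-fold higher. Fgf13 and Fgf14, also intracellular, were at least 19.2-fold and 19.0-fold lower, although another Fgf13 probe gave a difference of -0.43 and another Fgf14 probe one of 0.47. Against ES, 4 of 11 were higher and 0 lower in PM2i-iPSC (14.0% and 11.3% of all genes), and 6 of 12 were higher and 0 lower in OM2i-iPSC (20.6% and 13.6%), with medians of 0.65 and 1.54 beside -0.04 and 0.04 over all genes. Fgf14 was at least 3.95-fold higher in PM2i-iPSC and at least 9.64-fold in OM2i-iPSC. The Fgf14 probe that gave 0.47 gave smaller differences from ES, 0.57 in PM2i-iPSC and 1.58 in OM2i-iPSC. A further Fgf14 probe gave a bound of 2.71 in OM2i-iPSC. Fgf16 was at least 3.59-fold higher in PM2i-iPSC and Fgf13 at least 5.64-fold in OM2i-iPSC.

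Co-receptors and proteins that bind FGF ligands were mostly lower outside MEF. Of 16, 12 were at least 2-fold lower in ES and 2 higher (22.4% and 33.7% of all genes), with a median of -2.06 beside 0.27 over all genes. In each iPSC preparation 13 were lower and 3 higher, where 23.6% and 33.9% of all genes were in PM2i-iPSC and 23.3% and 36.6% in OM2i-iPSC. The medians were -2.15 and -1.71, beside 0.26 and 0.36 over all genes. All 4 syndecans, which carry heparan sulfate chains, were among those lower on the 3 arrays. Flrt2, a membrane protein that binds FGF receptors, read -2.87 in ES and 4.16 in MEF, a 130-fold difference. Gpc6, a glypican, was lower in ES by at least 129-fold. The higher genes in ES were Klb (6.10-fold) and Kl (3.52-fold), the klotho co-receptors of endocrine FGFs. Against ES the counts were small, with 2 of 14 tested higher and 2 lower in PM2i-iPSC (14.0% and 11.3% of all genes) and 2 of 15 higher and 2 lower in OM2i-iPSC (20.6% and 13.6%). Gpc3, a further glypican, was 2.75-fold lower in PM2i-iPSC, and Flrt2 at least 3.29-fold. In OM2i-iPSC Fgfbp1, which releases FGFs from the matrix, was above ES by at least 5.04-fold and Flrt1 by at least 3.90-fold.

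Enzymes that build or trim heparan sulfate followed the same direction against MEF. Of 12, 7 were lower by 2-fold or more in ES, 6 in PM2i-iPSC and 7 in OM2i-iPSC. Of all genes 22.4%, 23.6% and 23.3% were that much lower. On those arrays 0 of the enzymes were higher, where 33.7%, 33.9% and 36.6% of all genes were. Medians of the enzymes were -1.52, -1.26 and -1.57 beside 0.27, 0.26 and 0.36 over all genes. Hs3st1, a 3-O-sulfotransferase, fell short of its MEF level by at least 90.1-fold in ES. Hs6st2, a 6-O-sulfotransferase, read 3.94 in MEF, -2.26 in ES, -0.33 in OM2i-iPSC and -6.48 in PM2i-iPSC. Its level was at least 5.01-fold below ES in PM2i-iPSC and 3.82-fold above ES in OM2i-iPSC. Ndst2, an N-deacetylase and N-sulfotransferase, was 6.87-fold above ES in PM2i-iPSC and 3.91-fold in OM2i-iPSC.

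Of 17 adaptors and kinases below the receptor, 1 exceeded its MEF level at least 2-fold in ES (33.7% of all genes did) and 5 were lower, a share near the 22.4% of all genes, with a median of -0.61 beside 0.27 over all genes. Gab1, a docking protein that recruits PI3 kinase and Shp2, was 12.7-fold higher in ES, while the adaptor Shc1 was 2.50-fold and Map2k2, which encodes MEK2, 2.38-fold lower. In PM2i-iPSC 3 of 17 were higher and 5 lower than in MEF (33.9% and 23.6% of all genes), and in OM2i-iPSC 3 and 6 (36.6% and 23.3%). Against ES 1 was higher and 0 lower in PM2i-iPSC (14.0% and 11.3% of all genes), and 2 were higher and 1 lower in OM2i-iPSC (20.6% and 13.6%). Braf, a RAF kinase, was 3.34-fold higher in PM2i-iPSC and 2.17-fold in OM2i-iPSC by its brightest probe, while another probe gave -1.87 and -1.10.

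Feedback inhibitors and targets differed from MEF in both directions, at shares near those of all genes. Of 15, 5 were at least 2-fold higher in ES than in MEF (Spry1, Spry4, Il17rd, Etv4 and Etv5; 33.7% of all genes were) and 3 were lower (Dusp4, Egr1 and Fosl1; 22.4% of all genes), with a median of 0.17 beside 0.27 over all genes. Those 5 were also the ones higher than MEF in PM2i-iPSC and OM2i-iPSC, where 33.9% and 36.6% of all genes were. Lower than MEF were 4 in PM2i-iPSC (23.6% of all genes) and 5 in OM2i-iPSC (23.3%). In ES against MEF no difference could be given for Spry2 and Dusp6, which were saturated on both arrays. Nor could one be given for Spry3 and Spred3, which were not well above background in ES. Etv5, an ETS transcription factor induced by FGF, read -1.63 in MEF, 1.56 in ES, 1.96 in OM2i-iPSC and 1.88 in PM2i-iPSC, and its level in ES was 9.13-fold that in MEF. Spry4, a Sprouty inhibitor, was 4.74-fold higher in ES. Dusp4, an ERK phosphatase, was 18.5-fold lower in ES and Fosl1, an AP-1 factor, 11.3-fold.

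Against ES 0 of 13 tested feedback genes were higher and 3 lower in PM2i-iPSC (14.0% and 11.3% of all genes), and 1 was higher and 1 lower in OM2i-iPSC (20.6% and 13.6%). Spry2, a further Sprouty gene, lay at least 2.80-fold below ES in PM2i-iPSC and at least 6.16-fold below it in OM2i-iPSC, its probe being saturated in ES; a dimmer Spry2 probe gave 2.40 for OM2i-iPSC. Egr1, an immediate early target of ERK, was 2.53-fold lower in PM2i-iPSC. Dusp4 was 2.48-fold higher in OM2i-iPSC (1.31) and 2.10-fold lower in PM2i-iPSC (-1.07), while its dimmer probe gave 3.27 and 0.75.

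**Figure D4:**
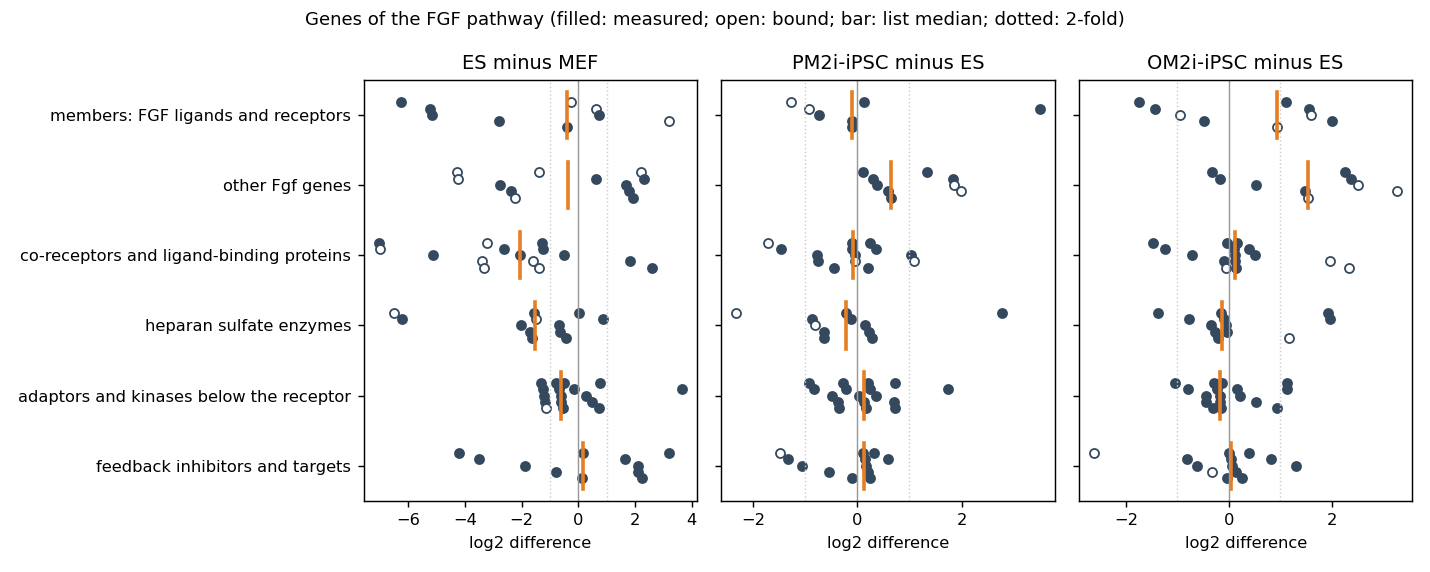
Log2 differences of the 10 member genes and of 5 lists of pathway genes, for ES minus MEF, PM2i-iPSC minus ES and OM2i-iPSC minus ES. Each point is 1 gene by its brightest probe, filled where measured and open where a bound; orange bars are list medians and dotted lines mark 2-fold. Against MEF the co-receptors and heparan sulfate enzymes lie mostly below 0, and the OM2i-iPSC panel shows other Fgf genes above 0.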

How the data were processed

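Agilent spot intensity was deposited by the authors, extracted with Agilent Feature Extraction 10.7.3.1 (MEF 9.5.3.1), per the file headers. Other deposited columns used here are spot flags, names, sequences and positions. Control spots and outliers were left out, spots averaged per probe, and log2 of the processed signal over the array's 75th percentile taken (Python 3.11.15, pandas 2.3.3, numpy 2.4.6). Symbols came from the RefSeq table given: 23545 probes matched by accession, 6295 by symbol and 2952 by older symbol, and 8382 kept their name. A gene was read by its brightest probe over the 4 arrays and tested where well above background on at least 1 of 2 arrays; differences were counted at 2-fold, without a test. The counting was tested on simulated data. The members and lists were chosen with earlier results of these data known. Named were all members, up to 2 genes per list and direction that differed most between ES and MEF, up to 2 per list for each iPSC preparation against ES, and the 2 genes nearest each member. Genes named only as list members, and marker genes given with values, such as Otx2 and Lef1, lie outside that rule. They were chosen after their values were seen. Alternatives were median and quantile scaling, normexp (limma 3.58.1, offset 50, on median signals), the deposited series table, which matched the scanner files within 0.5%, other filters and a 4-fold limit. Each other probe of a member was tried after the data were seen. Affymetrix values were not used here. Some probe sequences are not reported here.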

Additional observations from a re-analysis of the deposited data

Results flagged for a closer look

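The iPSC preparations moved in opposite directions relative to ES in Fgfr1 and Fgfr2, read by their brightest probes. Fgfr1 differed from ES by 3.50 in PM2i-iPSC and by -1.44 in OM2i-iPSC. Fgfr2 differed by -1.28 in PM2i-iPSC, a bound, and by 1.55 in OM2i-iPSC. With 1 array per group the difference between the preparations was not tested, and both values of each gene share the ES array. Neither opposition held by another probe: Fgfr1 probes 2 and 3 gave 1.63 and 1.24 in PM2i-iPSC and 1.62 and 1.64 in OM2i-iPSC, and Fgfr2 probe 2 gave 0.97 and 1.08.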

How the results depend on the processing

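No paired analysis was possible because each group had 1 array, and leaving out an array would leave its group empty. Of 49 member differences, 0 changed sign past 2-fold under median scaling, normexp or the deposited table. Sizes were less stable: 25 counted as moved with median scaling, 25 with normexp, 23 with quantile normalisation and 0 with the deposited table. A shift of Fgf7 in ES minus MEF from -5.17 to -4.93 counted as moved. By probe 2 of a gene 3 of 20 differences stayed the same, and by probe 3 0 of 12. Reversed values were Fgf2 in OM2i-iPSC minus MEF (-0.04 with quantile normalisation), Fgfr1 in OM2i-iPSC minus ES (0.65 as the mean over probes, 1.62 and 1.64 by probes 2 and 3), Fgfr1 in PM2i-iPSC minus OM2i-iPSC (-0.41 by probe 3), and Fgfr2 by probe 2 in PM2i-iPSC minus MEF (2.69), OM2i-iPSC minus MEF (2.80) and PM2i-iPSC minus ES (0.97); the cause was not tested. Members higher in OM2i-iPSC than in MEF fell from 3 to 1 with median scaling, quantile normalisation or normexp, and to 0 at 4-fold. Those higher in ES than in MEF went from 1 to 2 with quantile normalisation and 0 with detection required on both arrays, and those higher in PM2i-iPSC than in MEF from 0 to 1 with quantile normalisation, the mean over probes or no filter. Members lower in PM2i-iPSC than in ES went from 1 to 2 (median scaling), 3 (no filter) or 0 (both arrays, or 4-fold). At 4-fold, those higher and lower in OM2i-iPSC than in ES went from 4 and 2 to 1 and 0, and those higher in PM2i-iPSC than in OM2i-iPSC from 2 to 1, as with the mean over probes; those lower went from 3 to 1 with detection on both arrays. Under the alternatives run, the counts lower than MEF stayed within 1.5 times. Signals of Fgf2, Fgf5, Fgf15 and Fgfr2 probe 2 near the floor limit their folds.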
